A study of Mus musculus with 9 samples.

Results

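Gene expression of the lysosomal cathepsins, the lysosome-associated membrane proteins and the vacuolar proton pump was followed across splenic type 2 dendritic cells of young and adult mice. The set holds every gene symbol in the count files that begins with Atp6v or Atp6ap, every symbol made of Cts and a single letter, and Lamp1 to Lamp5, Cd63, Lgmn, Ifi30, Tfeb, Tfe3 and Mcoln1 to Mcoln3. This rule used names and no measured value, and it found 56 of the 24054 genes listed. Messenger RNA was sequenced in 9 libraries. Mice at postnatal day 8 ("young") gave 3 libraries each of TOM+ cDC2 and of TOM- DC2, and adults gave 3 libraries of TOM+ cDC2, 1 from mice of 9 weeks and 2 from mice of 8 weeks. All mice were C57BL/6 animals of the genotype Clec9a-Cre/Cre Rosa-tdTomato/tdTomato, so the adult controls also carry Cre in both copies of the Clec9a locus. TOMATO marks a cell in which, or in a precursor of which, Cre was once made from the Clec9a locus, which is active in conventional dendritic cell precursors and cDC1, so TOM- DC2 are cells without that history or without recombination. The cells were MHCII+ CD11c+ CD11b+ and free of autofluorescence, sorted after CD11c enrichment, and young spleens were pooled before the sort. Nothing in the labels says how far the 3 libraries of a group are separate animals, and p-values measure only the spread between these libraries.

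Lysosomes are the acidic compartment in which endocytosed protein is cut into peptides, and in dendritic cells the same compartment loads MHC class II molecules. The vacuolar ATPase (V-ATPase) acidifies it: the cytosolic V1 domain hydrolyses ATP, the membrane V0 domain carries protons, and accessory subunits help assembly and sorting. Cathepsins are the proteases of this compartment, LAMP1 and LAMP2 are the main proteins of its membrane, mucolipins are its cation channels, and TFEB and TFE3 are transcription factors that bind the CLEAR motif near lysosomal genes.

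Each library held between 12783252 and 22809401 reads on genes. Of the sort markers, Itgax (CD11c) stood at 301 to 463 TPM and H2-Ab1 (MHCII) at 15674 to 29642 TPM over the libraries. TPM is a level per transcript length, relative to the total of the library. Sirpa, a cDC2 marker that the sort did not use, stood at 463 to 862 TPM. The summed TPM of 9 cDC2 and dendritic cell markers, most of it H2-Ab1, differed with age. It was 18485 to 18800 in young TOM+ cDC2, 17340 to 18448 in young TOM- DC2 and 29451 to 31529 in adults. In bulk samples, fewer cells of a type and less RNA per cell cannot be told apart. The summed TPM of 14 macrophage markers was 377 to 408 in young TOM+ cDC2, 495 to 554 in young TOM- DC2 and 266 to 333 in adults, of which Emr1 (F4/80) alone gave 164 to 237, while Siglec1, Marco and Cd5l stayed at or under 0.82 TPM in every library. The sum of 6 markers of mature migratory dendritic cells, among them Ccr7, was 465 to 505, 515 to 667 and 1736 to 2665 TPM in the same order of groups. Erythroid transcripts reached 1171 TPM in the young TOM- DC2 library numbered 81 and 52.1 to 119.6 TPM in the other young libraries, against 1.39 to 13.2 TPM in adults.

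Together the 56 members made up 1.09% to 1.16% of all TPM in each library. Their sum was 11120 ± 151 TPM in young TOM+ cDC2, 11417 ± 203 in young TOM- DC2 and 11239 ± 269 in adult TOM+ cDC2 (mean ± SD, n = 3 each, as for all such values). The sum did not separate adults from either young group. Every young TOM- library (11270 to 11649 TPM) did lie above every young TOM+ library (10947 to 11225 TPM). The 18 cathepsins gave 4993 ± 56.1, 5021 ± 154 and 5075 ± 93.6 TPM. The 26 V-ATPase genes gave 4325 ± 187, 4488 ± 208 and 4369 ± 198 TPM. Part of that sum is Atp6v0c and Atp6v0c-ps2, whose reads could not be placed on 1 gene. The other 24 genes gave 2977 ± 61.4, 3133 ± 69.0 and 3038 ± 47.4 TPM, with no overlap between the young groups while adults overlapped both. Some smaller classes separated young from adult libraries, among them the V1 genes, whose sums are given below. The aspartic cathepsins Ctsd and Ctse summed to 159 ± 11.4 TPM in young TOM+ cDC2, 197 ± 15.9 in young TOM- DC2 and 103 ± 9.71 in adults. The mucolipin sum, nearly all of it Mcoln1, went the other way with age, at 40.6 ± 1.69, 44.5 ± 2.51 and 60.8 ± 3.48 TPM. The rare Mcoln2 was higher in young cells.

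With a minimum of 1 count on average, 40 of the 56 members were tested. The 16 others had at most 3 counts in any library, and 9 of them had none in any library, where a floor of 3 counts corresponds to 0.132 to 0.235 CPM, that is, counts scaled to a common library total: Atp6ap1l, Atp6v0a4, Atp6v0c-ps2, Atp6v0d2, Atp6v0e2, Atp6v1b1, Atp6v1e2, Atp6v1g3, Ctsg, Ctsj, Ctsm, Ctsq, Ctsr, Lamp3, Lamp5 and Mcoln3. Among them are Atp6v0d2, the d subunit of osteoclasts and some macrophages, Atp6v1b1 and Atp6v0a4, subunits of acid-secreting epithelia, and Lamp3 (DC-LAMP), a protein of mature human dendritic cells. RSEM gave Lamp3 somewhat more, with expected counts of 9.38 to 12.44 in young TOM+ cDC2, 4.16 to 14.3 in young TOM- DC2 and 1.03 to 5.14 in adults. No symbol Lamp4 was found. Differences below are log2 fold changes from edgeR's quasi-likelihood test, with Benjamini-Hochberg adjustment over all 14452 genes tested, and a gene was called at an adjusted p under 0.05.

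The first comparison asked whether the history of Clec9a expression goes with a different lysosomal program at the same age. Without the pairing of the young libraries, of 40 tested members none was called higher in young TOM+ cDC2, against 0.125% of all genes, and 1 was called higher in young TOM- DC2, against 1.47% of all genes. Without adjustment, 1 member was higher and 4 were lower in TOM+ cDC2 at p under 0.05. In either direction that was 12.5% of the tested members, beside 9.38% of all genes. DESeq2 and limma likewise called no member higher. The median log2 fold change of the members was -0.062, beside 0.0013 for all genes. Past a log2 fold change of 1 in either direction stood 1 member, against 1.18% of all genes.

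The member called was Ctsl (chr13:64359337-64370890 in GRCm38), the cysteine protease cathepsin L, which processes invariant chain in thymic epithelium and other proteases in many cells. Its TPM were 15.8, 19.8 and 19.7 in young TOM+ cDC2, 28.4, 40.0 and 44.4 in young TOM- DC2 and 13.4, 25.2 and 21.3 in adult TOM+ cDC2, so every young TOM- library lay above every other library. The log2 fold change of young TOM+ cDC2 against young TOM- DC2 was -1.02 (SE 0.23, adjusted p = 0.046). Without the pairing of the young libraries, that call was close to the threshold. Of 20 alternatives, only the replicate block described below used the pairing. The log2 fold change stayed between -1.22 and -0.86 over the 20 alternatives, but the adjusted p ran from 0.000129, in that block, to 0.226. The call was lost in 10 of them: with RSEM counts (0.0612), with limma on TPM (0.105 to 0.153), without any 1 of the young TOM+ libraries (0.109 to 0.123), without the young TOM- library 91 (0.165) or 92 (0.226), and without the adult library 95 (0.0701), which enters through the shared spread. The macrophage markers ran in the same order of groups as Ctsl between the young cells, where 1 of 14 (Cd163) was higher in TOM+ cDC2 and none was called lower. Their part in the result was not tested. Against adults, Ctsl was higher in young TOM- DC2 by 0.76 (SE 0.23, adjusted p = 0.0205), a call that was lost in 4 of 20 alternatives, without the young TOM- library 91 (0.0686) or 92 (0.0991) or the adult library 91 (0.0796) or 95 (0.0502), with log2 fold changes of 0.56 to 0.78.

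The young libraries carried matching numbers, 81, 91 and 92, and same-numbered libraries of the TOM+ and TOM- cells deviated together, so the comparison was also fitted with that number as a block. The blocked fit called 6 members lower in young TOM+ cDC2, against 4.34% of all genes, and none higher, against 2.23%. Beside Ctsl, at -0.996 (SE 0.13, adjusted p = 0.000129), these were Ctse at -0.64 (SE 0.17, adjusted p = 0.0383), Cd63 at -0.40 (SE 0.11, adjusted p = 0.0366), Ctsd at -0.26 (SE 0.052, adjusted p = 0.0063), Atp6v1a at -0.24 (SE 0.066, adjusted p = 0.0437) and Lamp1 at -0.17 (SE 0.05, adjusted p = 0.0484). Atp6v1a, the catalytic A subunit of V1, is named after its values were seen. All of these were higher in the TOM- cells, and apart from Cd63 their TPM did not overlap between the young groups. The same lack of overlap was seen for Atp6ap1, Atp6v0b, Atp6v1b2, Ctsb, Mcoln1, Ctsf and Ctsw, which were not called there. Its share over all genes was not counted.

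**Figure D1:**
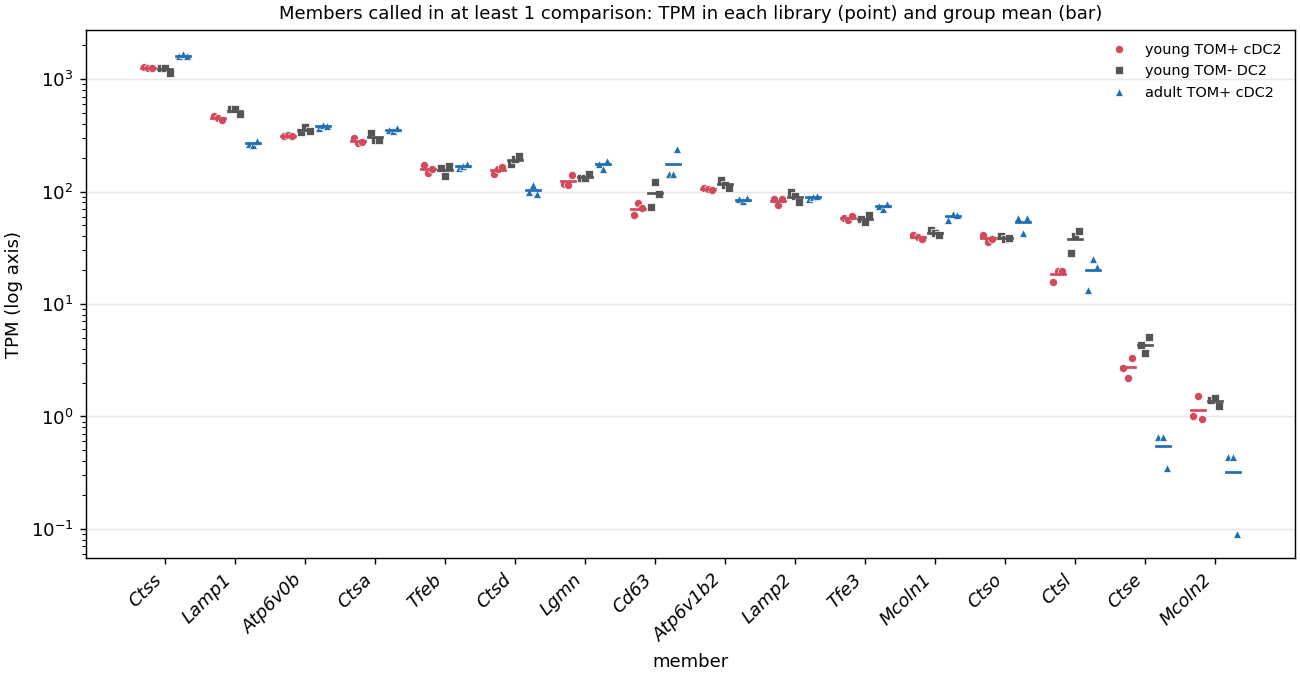
Levels in TPM (log axis) of the 16 members called in at least 1 comparison, ordered by mean level, with a point for each of the 3 libraries of a group and a bar at the group mean. Lamp1, Ctsd, Ctse and Mcoln2 lie lower in adults (blue) than in either young group, Ctsl is highest in young TOM- DC2 (grey), and Cd63, Mcoln1, Ctso and Ctss are highest in adults.

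The age comparisons asked which members differ between young and adult cells, and both used the same 3 adult libraries, so they are not independent of each other. Between young and adult TOM+ cDC2, 13 of 40 tested members were called. Higher in young cells were 4, Lamp1, Ctsd, Ctse and Mcoln2, against 21% of all genes, and higher in adults were 9, Cd63, Mcoln1, Lgmn, Ctso, Ctss, Tfe3, Ctsa, Atp6v0b and Lamp2, against 19.5% of all genes. Past a log2 fold change of 1 stood 3 members, Ctse, Mcoln2 and Cd63, against 12.8% of all genes. In either direction 32.5% of the tested members were called, beside 40.6% of all genes, and the median of the members was -0.096, beside 0.049 for all genes.

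Between young TOM- DC2 and adult TOM+ cDC2, 15 members were called. Higher in the young cells were 6, Lamp1, Ctsd, Ctse, Ctsl, Mcoln2 and Atp6v1b2, against 19.4% of all genes, and higher in adults were 9, Cd63, Mcoln1, Lgmn, Ctso, Ctss, Tfe3, Tfeb, Ctsa and Atp6v0b, against 16.9%. The same 3 members, Ctse, Mcoln2 and Cd63, passed a log2 fold change of 1, against 11.3% of all genes. The median of the members was -0.065, beside 0.07 for all genes. This comparison differs in age and in Clec9a history at once, and the 2 cannot be told apart within it.

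The balance of higher and lower calls moved with the scaling. With total gene counts in place of TMM factors, the median of all genes shifted by 0.20 toward young TOM+ cDC2 and by 0.22 toward young TOM- DC2, and the members split into 9 higher and 7 lower in young TOM+ cDC2, against 33.1% and 12.6% of all genes, and into 12 higher and 6 lower in young TOM- DC2, against 34.7% and 10.2%. TPM are scaled by the library total as well, so a member that is steady in TPM between young and adult cells lies slightly lower in young cells by the test. The directions of the members described as called here were the same under every scaling tried.

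**Figure D2:**
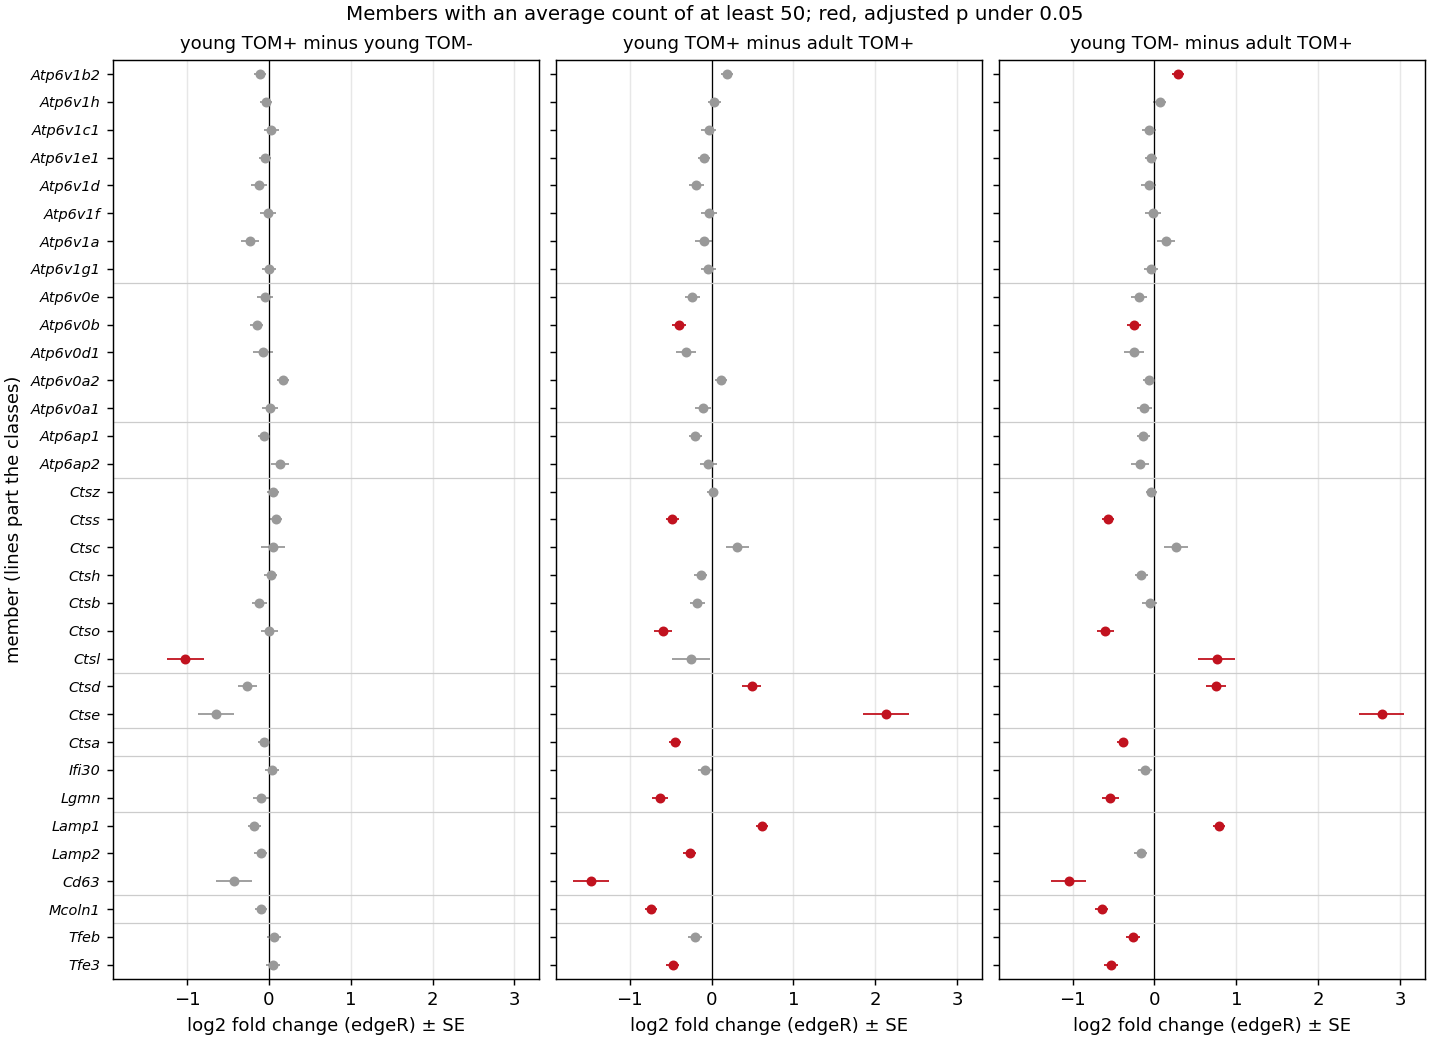
Log2 fold changes (± SE) of the 33 members that averaged 50 counts or more, in the 3 comparisons, grouped from top to bottom as V1, V0, accessory subunits, cysteine, aspartic and serine cathepsins, Ifi30 and Lgmn, membrane proteins, channel and transcription factors, with adjusted p under 0.05 in red. Only Ctsl is red between the young groups, in this fit without the pairing of the young libraries. In both age comparisons V-ATPase genes lie close to 0 while Ctse, Lamp1 and Cd63 stand away from it.

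Lamp1 (chr8:13159161-13175338), which encodes the most abundant glycoprotein of the lysosomal membrane, was higher in young cells. Its TPM were 472, 447 and 436 in young TOM+ cDC2, 537, 539.5 and 486 in young TOM- DC2 and 267, 258 and 284 in adult TOM+ cDC2. No 2 groups overlapped, with the adults lowest and the young TOM- cells highest. The log2 fold change against adults was 0.61 (SE 0.075, adjusted p = 5.11e-05) for young TOM+ cDC2 and 0.79 (SE 0.075, adjusted p = 1.09e-05) for young TOM- DC2. Lamp2 (chrX:38401357-38456454), whose splice forms serve membrane stability and chaperone-mediated autophagy, did not follow Lamp1: its TPM were 85.3, 76.3 and 85.1, 98.1, 91.5 and 80.7 and 86.6, 89.3 and 91.8, and its log2 fold change was -0.27 (SE 0.082, adjusted p = 0.0199) for young TOM+ cDC2 against adults and -0.17 (SE 0.082, adjusted p = 0.125) for young TOM- DC2. The Lamp2 call was lost in 7 of 20 alternatives, among them total counts and leaving out the young TOM+ library 81 or 91 or the adult library 92.

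Ctsd (chr7:142375911-142388038), the main lysosomal aspartic protease, was also higher in young cells, with TPM of 145, 158 and 167 in young TOM+ cDC2, 176, 194 and 207 in young TOM- DC2 and 99.3, 114 and 95.5 in adults. Its log2 fold change against adults was 0.49 (SE 0.12, adjusted p = 0.00623) in young TOM+ cDC2 and 0.75 (SE 0.12, adjusted p = 0.000427) in young TOM- DC2. Ctse (chr1:131638306-131675505), an endosomal aspartic protease found in dendritic and gastric cells, was much less abundant and changed most, with TPM of 2.7, 2.22 and 3.29, 4.28, 3.65 and 5.05 and 0.65, 0.65 and 0.35 and counts of 10 to 12 in each adult library against 51 to 165 in the young ones. Its log2 fold change was 2.13 (SE 0.28, adjusted p = 8.4e-05) and 2.78 (SE 0.28, adjusted p = 1.38e-05), and the groups did not overlap. Both aspartic cathepsins thus had the order young TOM-, young TOM+, adult, and so did the sum of the macrophage markers, of which 4 were called higher and 1 lower in young TOM+ cDC2 than in adults, and 8 higher and none lower in young TOM- DC2. Their part in the result was not tested.

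Mcoln2 (chr3:146149833-146195513), an endolysosomal cation channel that is inducible in macrophages, was rare in all groups, with 28 to 44 counts in each young library and 8, 8 and 2 counts in the adults. In TPM it stood at 1, 1.51 and 0.94 in young TOM+ cDC2, 1.41, 1.46 and 1.23 in young TOM- DC2 and 0.44, 0.44 and 0.09 in adult TOM+ cDC2, and the log2 fold change against adults was 1.83 (SE 0.48, adjusted p = 0.00891) and 2.04 (SE 0.48, adjusted p = 0.00507). Mcoln1 (chr8:3500457-3515232), the broadly expressed channel that releases lysosomal calcium, moved the opposite way, with TPM of 41, 39.5 and 37.8, 45.7, 42.6 and 41 and 56.4, 63.1 and 61.9. The log2 fold change of Mcoln1 was -0.74 (SE 0.078, adjusted p = 1.58e-05) and -0.65 (SE 0.078, adjusted p = 5.35e-05), with all adult libraries above all young ones. The abundant channel gene was therefore higher and the rare one lower in adults.

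Cd63 (chr10:128900989-128912822), a tetraspanin of late endosomes and exosomes, had the largest shift toward adults. Its TPM were 62.1, 78.9 and 70.9 in young TOM+ cDC2, 72.9, 121 and 94.6 in young TOM- DC2 and 144, 143 and 239 in adults, where the last value is the library numbered 95. The log2 fold change was -1.47 (SE 0.22, adjusted p = 0.000218) for young TOM+ cDC2 and -1.05 (SE 0.22, adjusted p = 0.00245) for young TOM- DC2, and without that library it was -1.21 (adjusted p = 0.000921) and -0.79 (adjusted p = 0.0118), and in every alternative both calls held. The markers of mature migratory dendritic cells summed to 1790, 1736 and 2665 TPM in the same 3 adult libraries. In the test 1 of the 6 (Ccl17) was higher and 3 were lower in young TOM+ cDC2 than in adults, and none was higher and 4 were lower in young TOM- DC2. Their part in the Cd63 difference was not tested.

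Several proteases and processing enzymes were moderately higher in adults. Lgmn (chr12:102394084-102439813), the asparagine endopeptidase that starts cleavage of some antigens, had TPM of 117, 115 and 139 in young TOM+ cDC2, 132, 131 and 143 in young TOM- DC2 and 175, 160.3 and 188 in adults, with log2 fold changes of -0.63 (SE 0.10, adjusted p = 0.000384) and -0.54 (SE 0.10, adjusted p = 0.00137). Ctss (chr3:95526786-95556403), the protease that trims the last part of invariant chain from MHC class II in dendritic cells, was among the most abundant members, with TPM of 1295, 1262 and 1245, 1258, 1255 and 1144 and 1597, 1665 and 1593. Adult libraries were again all above young ones, and the log2 fold change was -0.48 (SE 0.077, adjusted p = 0.000368) and -0.57 (SE 0.077, adjusted p = 0.000137). Ctso (chr3:81932601-81956725), a cysteine cathepsin of broad expression, had TPM of 41.1, 35.9 and 38, 40.6, 37.6 and 38.7 and 57.9, 43.1 and 58.6 and log2 fold changes of -0.59 (SE 0.10, adjusted p = 0.000717) and -0.60 (SE 0.10, adjusted p = 0.000771). Ctsa (chr2:164832873-164841032), the serine carboxypeptidase that also protects beta-galactosidase and neuraminidase, had TPM of 301, 273 and 278, 331, 288 and 289 and 353, 349 and 366. For Ctsa the log2 fold change was -0.45 (SE 0.07, adjusted p = 0.000296) and -0.39 (SE 0.07, adjusted p = 0.001), and only with total counts was its call lost, in young TOM- DC2 against adults (adjusted p = 0.0866, the highest of its alternatives, the lowest being 3.16e-11).

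The other abundant cathepsins and Ifi30 were not called between any groups in the main test. Ctsb, a cysteine protease with both endopeptidase and exopeptidase action, had TPM of 221, 215 and 218 in young TOM+ cDC2, 255, 231 and 239.6 in young TOM- DC2 and 236, 237 and 202 in adults, and log2 fold changes against adults of -0.18 (SE 0.091, adjusted p = 0.145) and -0.059 (SE 0.091, adjusted p = 0.645). Without the adult library 95, Ctsb was called lower in young TOM+ cDC2, at -0.27 (adjusted p = 0.0157), and so it was with the replicate block, at -0.26 (adjusted p = 0.00115). No other library carried the number 95, so the block also left that library out of this comparison, and the 2 results are not separate. These were 2 of 20 alternatives, with an adjusted p of up to 0.836. Ifi30, the thiol reductase GILT that opens disulfide bonds of antigens, had TPM of 821, 836 and 787, 824, 797 and 799 and 776, 834 and 739 and log2 fold changes of -0.077 (SE 0.083, adjusted p = 0.49) and -0.12 (SE 0.083, adjusted p = 0.292). Ctsz, Ctsh and Ctsc, named after their values were seen, ranged over the 9 libraries from 1436 to 1664, from 747 to 802 and from 414 to 708 TPM. Ctsz and Ctss were thus the 2 most abundant cathepsin transcripts in every library, with Ctsz above Ctss in every young library and Ctss above Ctsz in every adult library. Ctsc, the exopeptidase that activates granule serine proteases, was 0.31 and 0.26 higher in young cells on the log2 scale without passing the test (adjusted p = 0.10 and 0.169). It was called higher in 6 and 5 of 20 alternatives, among them total counts (0.00757 and 0.0107), each limma fit and the replicate block (0.00441 and 0.0116), with the adjusted p over all 20 reaching 0.306 and 0.58. The rare cysteine cathepsins Ctsf, Ctsk and Ctsw stayed at or under 1.37 TPM in every library, and none of them was called.

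Among the transcription factors, Tfe3 (chrX:7762560-7775202) was called lower in young cells in both age comparisons. Its TPM were 58, 56.3 and 60.5 in young TOM+ cDC2, 56.8, 53.3 and 61.3 in young TOM- DC2 and 74.2, 70.2 and 76.8 in adults, with log2 fold changes of -0.48 (SE 0.084, adjusted p = 0.000695) and -0.53 (SE 0.084, adjusted p = 0.0004) and no overlap between young and adult libraries. Tfeb (chr17:47737030-47792419) was higher than Tfe3 in TPM, at 171, 148 and 160.1, 161, 139 and 169 and 163, 168 and 174, and the groups overlapped. Its log2 fold change was -0.20 (SE 0.084, adjusted p = 0.0747) and -0.26 (SE 0.084, adjusted p = 0.027). The first passed the threshold in 6 of 20 alternatives, among them DESeq2 (adjusted p = 0.0242), and the second was lost in 8 of 20, including total counts and limma on TPM, with an adjusted p between 0.00333 and 0.688.

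The promoters of the members that moved were searched for the core of the CLEAR motif, to which both factors bind, as a description of sequence and not of binding. RefSeq windows of GRCm38, which reach from 250 bases before to 50 bases after a transcription start, were found for 44 of the 56 members. No window was found for Atp6ap1l, Atp6v0a2, Atp6v0c-ps2, Atp6v0d2, Atp6v1b2, Atp6v1c1, Atp6v1g1, Atp6v1h, Ctsb, Ctse, Ctsh and Ctsw. The hexamer CACGTG, which reads the same on both strands, was in a window of 13 of the 44 members (29.5%), beside 8.09% of all 27025 genes with a window. Among tested genes it was in 13 of 31 members (41.9%), beside 11.3% of all. The longer TCACGTGA, which contains it, was in 7 of the 44 (15.9%), beside 1.12% of all genes, and the same letters with a further G before and a further C after were in none of the 44, beside 0.37%. The 13 members were Atp6v0b, Atp6v0d1, Atp6v0e, Atp6v1a, Ctsa, Ctsd, Ctsf, Ctsl, Ifi30, Lamp1, Lgmn, Mcoln1 and Mcoln2, so the hexamer was found in members higher in young cells (Lamp1, Ctsd, Mcoln2 and, for TOM- DC2, Ctsl), in members higher in adults (Mcoln1, Ctsa, Lgmn, Atp6v0b) and in members not called with age. Cd63, Ctso, Ctss, Tfe3, Tfeb and Lamp2, all called higher in adults in at least 1 age comparison, had it in none of their windows. To let members of both directions be read side by side, 2 promoters of each are given from 250 bases before to 20 bases after the start, 5′ to 3′ on the gene's strand, with each CACGTG in capitals. They lie at chr8:13158911-13159180, plus strand for Lamp1, chr7:142387808-142388077, minus strand for Ctsd, chr8:3500269-3500538, plus strand for Mcoln1 and chr2:164833523-164833792, plus strand for Ctsa.
Lamp1: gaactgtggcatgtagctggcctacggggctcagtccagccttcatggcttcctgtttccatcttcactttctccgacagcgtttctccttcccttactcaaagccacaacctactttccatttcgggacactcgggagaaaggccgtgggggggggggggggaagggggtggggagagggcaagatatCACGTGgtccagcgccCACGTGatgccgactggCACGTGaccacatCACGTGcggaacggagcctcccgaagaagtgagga
Ctsd: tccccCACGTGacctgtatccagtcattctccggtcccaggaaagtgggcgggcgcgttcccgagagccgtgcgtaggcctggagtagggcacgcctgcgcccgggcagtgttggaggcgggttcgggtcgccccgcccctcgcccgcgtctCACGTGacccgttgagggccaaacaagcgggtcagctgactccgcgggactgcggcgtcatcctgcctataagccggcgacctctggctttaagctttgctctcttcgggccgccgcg
Mcoln1: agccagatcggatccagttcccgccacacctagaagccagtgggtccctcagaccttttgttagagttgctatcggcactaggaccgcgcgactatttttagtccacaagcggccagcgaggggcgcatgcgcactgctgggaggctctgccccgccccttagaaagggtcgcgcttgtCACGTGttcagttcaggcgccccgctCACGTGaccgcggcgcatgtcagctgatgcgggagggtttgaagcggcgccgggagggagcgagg
Ctsa: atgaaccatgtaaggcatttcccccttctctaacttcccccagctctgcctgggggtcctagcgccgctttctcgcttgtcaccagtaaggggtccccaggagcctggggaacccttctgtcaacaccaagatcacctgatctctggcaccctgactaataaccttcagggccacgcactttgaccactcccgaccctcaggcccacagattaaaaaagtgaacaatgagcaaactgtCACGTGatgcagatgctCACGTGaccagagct

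Lamp1 carried 4 hexamers, all within 58 bases upstream of its start, while Mcoln1 carried 2, centred 68 and 42 bases upstream, and Ctsa 2, centred 9 bases upstream and 8 bases downstream. Ctsd had 2, at 242 and 95 bases upstream. Ctsa and Lgmn each also had a window at another start without the hexamer, at chr2:164832622-164832921 and chr12:102439679-102439978. Members with the same hexamer thus differed in the direction of their change with age.

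Few V-ATPase genes were called. Of their 26 genes 18 were tested, and none was called between the young groups, against 1.6% of all genes in either direction, although Atp6v1a was called there with the replicate block. Between young and adult TOM+ cDC2 1 was called (5.56%, against 40.6% of all genes), and between young TOM- DC2 and adults 2 were called (11.1%, against 36.3%). Without adjustment, 1, 5 and 2 of the 18 had p under 0.05 (5.56%, 27.8% and 11.1%), beside 9.38%, 48.6% and 46% of all genes. The medians of the 18 were -0.039, -0.039 and -0.065 on the log2 scale. Summed TPM of the V1 genes were 1509 ± 21.5 in young TOM+ cDC2, 1590 ± 14.0 in young TOM- DC2 and 1444 ± 36.0 in adults, and those of the V0 genes 2425 ± 168, 2506 ± 197 and 2534 ± 186. The V1 sums did not overlap between any groups, with adults lowest and young TOM- DC2 highest, whereas the V0 sums overlapped.

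Atp6v1b2 (chr8:69088646-69113711), which encodes the B subunit of most non-epithelial cells, was the V1 gene called: its TPM were 107, 104 and 104 in young TOM+ cDC2, 126, 115 and 108 in young TOM- DC2 and 85.4, 82.5 and 86.8 in adults. Its log2 fold change was 0.29 (SE 0.073, adjusted p = 0.00786) in young TOM- DC2 against adults and 0.18 (SE 0.073, adjusted p = 0.0629) in young TOM+ cDC2, where it was called in 5 of 20 alternatives, those with total counts, limma or the replicate block. Atp6v0b (chr4:117884326-117887333), a c'' subunit of the proton-carrying ring that is named after its values were seen, went the other way with 315, 317 and 312, 337, 375 and 346 and 369, 393 and 387 TPM. The log2 fold change of Atp6v0b was -0.40 (SE 0.084, adjusted p = 0.00247) and -0.25 (SE 0.084, adjusted p = 0.0355), the first lost with total counts (adjusted p = 0.0552, the highest of 20 alternatives, the lowest being 4.69e-06) and the second in 10 of 20 alternatives, with adjusted p from 0.00475 to 0.787.

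The other V-ATPase genes given in full were not called in the main test. Atp6v0d1, the d subunit at the base of the V0 domain, had TPM of 162, 199 and 175 in young TOM+ cDC2, 171, 211 and 192 in young TOM- DC2 and 211, 192 and 202 in adults, and log2 fold changes of -0.31 (SE 0.12, adjusted p = 0.0591) and -0.25 (SE 0.12, adjusted p = 0.138). The accessory subunit gene Atp6ap1 had TPM of 213, 203 and 206, 231, 215 and 215 and 205, 229 and 216, with log2 fold changes of -0.20 (SE 0.076, adjusted p = 0.0549) and -0.13 (SE 0.076, adjusted p = 0.184). Atp6ap2, the prorenin receptor, had TPM of 167, 195 and 192, 164, 187 and 164 and 168, 176 and 179, with log2 fold changes of -0.038 (SE 0.11, adjusted p = 0.808) and -0.17 (SE 0.11, adjusted p = 0.23). In young TOM+ cDC2 against adults, the call depended on the setting: Atp6v0d1 was called lower in 9 of 20 alternatives, among them DESeq2 (adjusted p = 0.0259) and RSEM counts (0.0482), with an adjusted p of 0.00521 to 0.425 over all 20, and Atp6ap1 was called lower in 6 of 20, with 0.00564 to 0.989. Library by library these 3 genes overlapped between young and adult cells. Atp6v0d2 had at most 2 counts in a library.

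**Figure D3:**
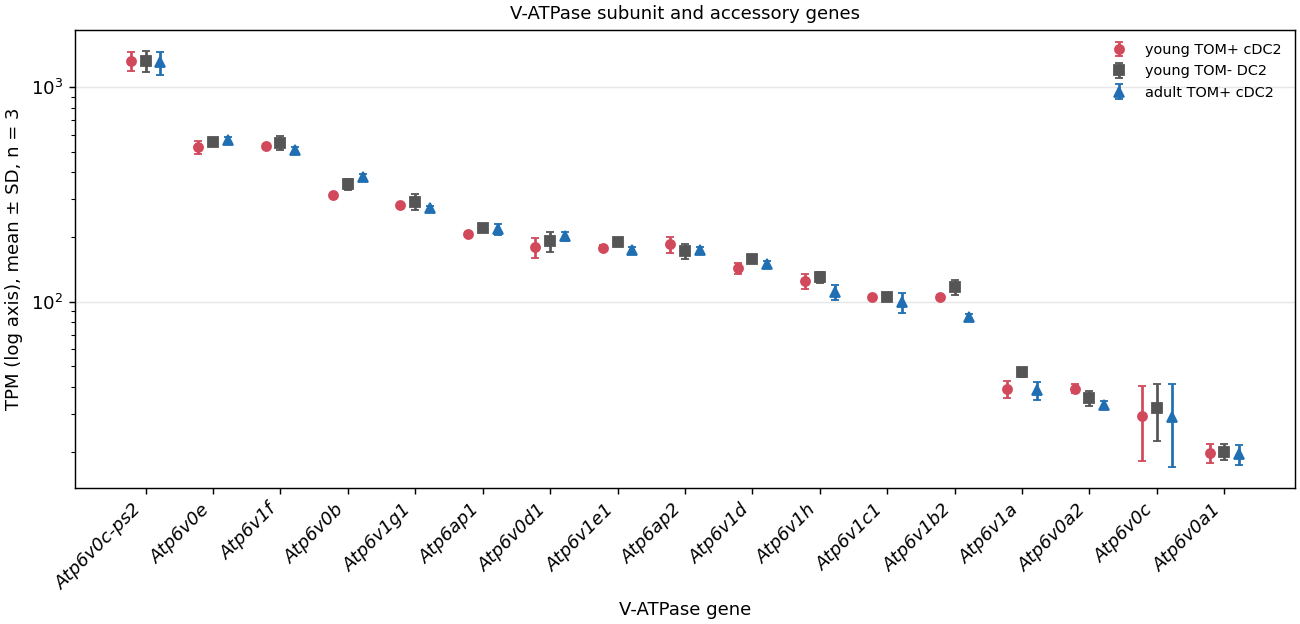
Mean TPM (log axis) ± SD over 3 libraries of V-ATPase genes that averaged 50 counts or more and of Atp6v0c and Atp6v0c-ps2, ordered by level, in young TOM+ cDC2 (red circles), young TOM- DC2 (grey squares) and adult TOM+ cDC2 (blue triangles). The group means of most genes lie close together on the log axis, although for several, such as Atp6v0b and Atp6v1b2, they differ by more than the SD. Atp6v0c-ps2 is placed far above Atp6v0c by the TPM although both names share near-identical sequence.

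The c subunit, the main part of the proton-carrying ring, could not be placed on 1 gene. Atp6v0c (chr17:24163866-24169702) had 0 to 6 counts per library and Atp6v0c-ps2, a processed pseudogene at chr6:37806086-37806550, had none, since the counting kept reads with a single best position. RSEM, which shares reads among near-identical transcripts, gave Atp6v0c 29.2 ± 11.1 TPM in young TOM+ cDC2, 31.9 ± 9.54 in young TOM- DC2 and 29.1 ± 12.2 in adults, and Atp6v0c-ps2 1319 ± 134, 1324 ± 148 and 1302 ± 161 TPM. Which of the 2 the reads came from is uncertain, so they were also added up and tested as 1 gene, an alternative chosen after seeing the data. Their joint log2 fold change was 0.022 (SE 0.13, adjusted p = 0.991) between the young groups, -0.14 (SE 0.13, adjusted p = 0.446) for young TOM+ cDC2 against adults and -0.16 (SE 0.13, adjusted p = 0.379) for young TOM- DC2 against adults. At 1331 to 1356 TPM in the 3 group means, their joint level was above that of any other V-ATPase gene.

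Subunits with several isoform genes used the same isoforms in all groups. Atp6v0d1 gave at least 99.9% of the d-subunit TPM, Atp6v1b2 all of the B-subunit TPM, Atp6v1e1 all of the E-subunit TPM and Atp6v1g1 98.8% to 99.1% of the G-subunit TPM in the group means. Subunit a was mixed. Tcirg1, which encodes the a3 isoform of lysosomes and osteoclasts and is no member because of its symbol, gave 65.2% ± 1.55 of the TPM of the 4 a-subunit genes in young TOM+ cDC2, 67.1% ± 0.915 in young TOM- DC2 and 76.2% ± 3.11 in adults. Atp6v0a2, the a2 isoform of Golgi and endosomes, gave 23.2% ± 1.16, 21.1% ± 0.261 and 15.0% ± 1.40, and Atp6v0a1 11.6% ± 0.774, 11.9% ± 0.777 and 8.84% ± 1.73. For each of these 3 genes the adult libraries lay apart from both young groups, and the 2-sided exact permutation p was 0.1, the smallest that 3 against 3 libraries allow, or 0.729 after Benjamini-Hochberg adjustment over all isoform shares. By gene, Tcirg1 was lower in young TOM+ cDC2 than in adults by a log2 fold change of -0.73 (SE 0.11, adjusted p = 0.000202) and in young TOM- DC2 by -0.73 (SE 0.11, adjusted p = 0.000229), whereas Atp6v0a1 and Atp6v0a2 were not called. Between the young groups, the Tcirg1 log2 fold change was 0.0081 (SE 0.11, adjusted p = 0.999).

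**Figure D4:**
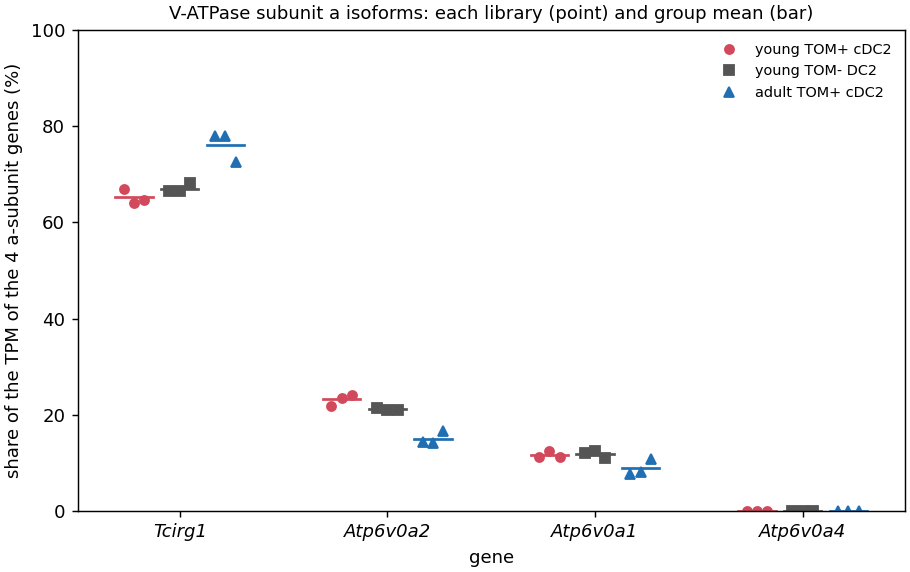
Share (%) of the summed TPM of the 4 genes for V-ATPase subunit a that each gene gave, with a point per library and a bar at the mean of 3 libraries. Tcirg1 gave 72.6% to 78.0% in the adult libraries and 64.1% to 68.1% in the young ones, Atp6v0a2 and Atp6v0a1 lay lower in adults, and Atp6v0a4 was at 0.

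Other genes of the lysosome, 104 in 6 lists of hydrolases, membrane proteins, sorting factors, cathepsin inhibitors, V-ATPase regulators and nutrient-sensing proteins, were all tested. Between the young groups 1 was called higher and 6 lower in TOM+ cDC2, against 0.125% and 1.47% of all genes. Against adults, 18 were higher and 34 lower in young TOM+ cDC2 (21% and 19.5% of all genes), and 22 were higher and 29 lower in young TOM- DC2 (19.4% and 16.9% of all genes), with medians of -0.080 and -0.058. Of 39 hydrolases 5 were higher and 14 lower in young TOM+ cDC2, and of 9 sorting factors 1 and 5. The other lists gave 5 and 6 of 23 membrane proteins, 2 and 1 of 5 inhibitors, 2 and 4 of 11 V-ATPase regulators and 3 and 4 of 17 nutrient-sensing genes. The summed TPM of the hydrolases went the other way, at 6253 to 6368 in young TOM+ cDC2 and 5273 to 5452 in adults.

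Some of these passed a log2 fold change of 1. Gusb, a hydrolase of glucuronides, was higher in young cells, by 1.01 in TOM+ cDC2 (adjusted p = 0.000133) and 1.10 in TOM- DC2 (adjusted p = 8.84e-05), and Idua, a hydrolase of glycosaminoglycans, was lower in young TOM+ cDC2 by -1.01 (adjusted p = 4.6e-05). The peptide transporter gene Abcb9 was higher by 1.12 (adjusted p = 0.00165) and 1.29 (adjusted p = 0.000702). Sort1, the sorting receptor sortilin, was lower in young cells by -1.97 (adjusted p = 6.04e-07) and -1.30 (adjusted p = 1.27e-05). Young TOM- DC2 also had more Dmxl2, a factor of V-ATPase assembly, than adults, by 1.47 (adjusted p = 0.00442), and Igf2r was listed at 0 TPM in every adult library and averaged 0.133 TPM in young TOM- DC2.

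Among those called between the young groups were 2 of the 5 cathepsin inhibitors, Serpinb1a and Serpinb6b, and the membrane protein gene Laptm4b. The other inhibitors were not called there: Cst3 at 0.089 (SE 0.13, adjusted p = 0.936), Cstb at -0.12 (SE 0.18, adjusted p = 0.939) and Cst7, in the opposite direction, at 0.77 (SE 0.18, adjusted p = 0.0551). Serpinb1a, an inhibitor of granule serine proteases and cathepsin G, averaged 18.3 ± 0.96 TPM in young TOM+ cDC2, 53.7 ± 3.55 in young TOM- DC2 and 7.77 ± 0.3 in adults. Its log2 fold change was -1.51 (SE 0.099, adjusted p = 7.45e-06) between the young groups, 1.10 (adjusted p = 1.07e-05) for young TOM+ cDC2 against adults and 2.61 (adjusted p = 2.59e-08) for young TOM- DC2. Serpinb6b averaged 5.45 ± 0.953, 15.9 ± 0.437 and 27.9 ± 7.08 TPM, with log2 fold changes of -1.47 (adjusted p = 0.000959) between the young groups and -2.46 (adjusted p = 1.51e-06) for young TOM+ cDC2 against adults. Laptm4b, a lysosomal membrane protein, averaged 1.12 ± 0.213, 6.75 ± 2.35 and 2.59 ± 0.614 TPM. For Laptm4b the 3 log2 fold changes were -2.70 (adjusted p = 0.00035), -1.42 (adjusted p = 0.00401) and 1.28 (adjusted p = 0.00348), so it was highest in young TOM- DC2. Ctsl among the members was highest in the same group.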

How the data were processed

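Splenic dendritic cells were sequenced as single-end reads of 50 bases from SMART-seq v4 cDNA. Per the labels and the study's methods, STAR mapped them to mm10, and the deposited counts are reads per gene with a single best position, of which the unstranded column was used. Multimapping reads were 10.4% to 13.4% of all reads. The authors also deposited RSEM expected counts and TPM on RefSeq transcripts. Expected counts were rounded before testing. Genes sharing reads with a near-identical copy, and overlapping or antisense genes, are uncertain.

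Counts were tested in R 4.3.3 with edgeR 4.0.16 (quasi-likelihood, TMM, all 9 libraries in 3 groups, average count of at least 1, Benjamini-Hochberg over 14452 genes). Levels are TPM. Alternatives used RLE or total-count scaling, DESeq2 1.42.0, limma 3.58.1 on log2(TPM + 1) or log2(TPM + 0.1), no filter or an average count of at least 10, RSEM counts, a replicate block, 2 groups alone, and each library left out. The scripts were tested on simulated data. Same-numbered young libraries correlated in their deviations from group means (0.662, 0.405 and 0.453), which pairs them, while young and adult libraries did not (0.0135 to 0.116). Members with an adjusted p under 0.05 and an average count of at least 50, up to 10 per comparison by size of change, and a list of 18 were given in full. Gene coordinates are from GENCODE M21 and promoters from RefSeq, both on GRCm38, the assembly behind mm10. The members, lists and tests were chosen with earlier results of these data known. No library was a copy of another (chi-square per gene of at least 8.74 within groups). SE and SD values include the spread between these libraries, whereas floors cover counting error only. The values of a marker list are not reported here.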

Additional observations from a re-analysis of the deposited data

Results flagged for a closer look

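Atp6v0c-ps2 had no count in any library in the counts that were tested, whereas RSEM gave it an expected count of at least 9083.58 in each of the 9 libraries, the lowest in the adult library numbered 91 and the highest, 21225, in the young TOM- DC2 library numbered 92. The signal lies in a column that the comparisons of counts did not use. It was present in all 3 groups, and the counting by symbol does not tell it from that of Atp6v0c.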

How the results depend on the processing

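Over 20 alternatives, 25 named members and 3 comparisons, 1500 calls were compared, and 1404 kept their side of the threshold. A member that was not called could change sign and still count as kept. Atp6ap1 in young TOM- DC2 against adults, for example, ran from -0.17 to 0.087 without a call. Of the other calls 41 were lost, 54 were gained and 1 turned. The call that turned was Ctsz in young TOM- DC2 against adults, at 0.19 with total gene counts (adjusted p = 0.039, against up to 0.878 in the others). Members lower in young TOM+ cDC2 than in young TOM- DC2 were 1, but 0 with RSEM counts and with each limma fit, 6 with the replicate block, and 0 to 1 when a library was left out. Members higher in young TOM+ cDC2 than in adults were 4, but 9 with total counts, 7 with limma at either pseudocount and 8 with limma and no filter. Members lower in young TOM+ cDC2 than in adults were 9, but 13 with DESeq2 and 14 with the replicate block, where young and adult libraries share only a number. In that block, number 81 had no adult library and number 95 no young one, so the adult library 95 did not enter the age comparisons. Members higher in young TOM- DC2 than in adults were 6, but 12 with total counts and 10 with each limma fit. For DESeq2, for limma and for the block in the age comparisons, the share of all genes called was not counted. Whether the members moved more than all genes in those settings is therefore not known. Total counts and TPM raise young values against adults by construction, and for the other differences the cause was not tested. Counts of members at 0 or near it are limited by depth, with a floor of 3 counts per library.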
